A study of Sus scrofa with 37 samples.

Results

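Basement membranes are thin sheets of matrix that underlie epithelia and wrap capillaries, and the genes described here encode 10 of their parts and receptors in the pig pancreas: the collagen IV chains COL4A1 and COL4A2, the laminin chains LAMA4, LAMA5, LAMB1 and LAMC1, the linkers NID1 (nidogen) and HSPG2 (perlecan), and the integrin chains ITGB1 and ITGA6. The rule takes the genes by name and uses no measured value, but the set was proposed with earlier results of these data known. Of the 10, 9 were analysed, out of 25880 gene identifiers in the count tables, and COL4A1 was not analysed here. The 9 were all counted in every library and all entered the tests.

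A basement membrane is built from a collagen IV network and a laminin polymer, which nidogen and perlecan hold together. A laminin molecule is a trimer of an alpha, a beta and a gamma chain, and LAMB1 and LAMC1 join LAMA4 in the membranes of capillaries and LAMA5 in those of both vessels and epithelia. Cells grip the sheet with integrins, dimers in which ITGA6 makes a laminin receptor with ITGB1 or with ITGB4, while ITGB1 also pairs with many other alpha chains. In islets, the clusters of endocrine cells inside the exocrine pancreas, a capillary membrane runs between the endocrine cells and a further membrane lies around the islet. In mouse islets, endothelial cells are known to supply much of the capillary membrane that beta cells touch through ITGB1, and enzymatic isolation is known to damage the membrane around the islet.

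Gene expression had been measured by RNA sequencing in isolated islets (18 libraries) and in pancreas (17 libraries) of pigs, to compare animals of higher and lower islet density. Islets had been purified and then held in floating culture for 7 days, while pancreas came as 50 mg pieces cut out of the duodenal lobe when the organ was retrieved, so tissue, isolation and culture cannot be told apart. The islets fell into 8 High and 9 Low libraries by the density label, plus the islets of animal 12AS51, which have none. The pancreas fell into 8 High and 9 Low libraries. The labels name no strain, age, treatment or allele and do not say how density was scored. Both tissues were counted in 16 of 19 animals, and 4 of these carry a different density label in each tissue. Separate animals are the replicates.

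Gene counts per library ran between 3237653 and 6702589 in islets and between 265000 and 3922006 in pancreas. Of the pancreas libraries 7, all labelled Low and 6 of them with an animal code that begins with 14, held only 265000 to 536014 counts and are called shallow below. All 6 animals with such a code are Low in both tissues, so code and density cannot be fully told apart. There, 3 counts correspond to 5.60 to 11.3 CPM (counts per 1000000 counts of the library), against 0.448 to 1.62 CPM elsewhere, and ITGB1 rested on 2 to 8 counts. Marker genes followed the tissue labels: the summed endocrine markers were at 8568 to 98398 CPM in islets and at 368 to 15834 CPM in pancreas, and the summed acinar markers at 5.22 to 541.5 CPM in islets and at 10295 to 256270 CPM in pancreas. A pair of islet libraries stood apart. In that of 12AS51, whose source name reads Pancreas, the 10 most abundant genes took 87.8% of the counts and the endocrine markers summed to 8568 CPM. In that of 15AS28 (High), the 10 most abundant genes took 52.3%. Results are given with and without the shallow libraries and the islets of 12AS51 where this mattered.

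Levels below are CPM on library totals and are compared across libraries, not between genes, because transcript lengths were not used. Fold changes are log2 differences between islets and pancreas, or between High and Low, from edgeR's quasi-likelihood test with TMM-scaled library sizes, with a standard error (SE) and a p adjusted by Benjamini-Hochberg over all genes tested. A gene passed at an adjusted p under 0.05. The TMM factors were 0.83 to 1.54 in islets with a density label, 0.12 in the islets of 12AS51 and 0.54 to 1.31 in pancreas. A gene with equal CPM in both tissues can therefore have a negative fold change. Ranges, ranks and pairs below use CPM without these factors. Against the other libraries, genes in the islets of 12AS51 therefore lie lower on the CPM scale than in the fits.

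**Figure D1:**
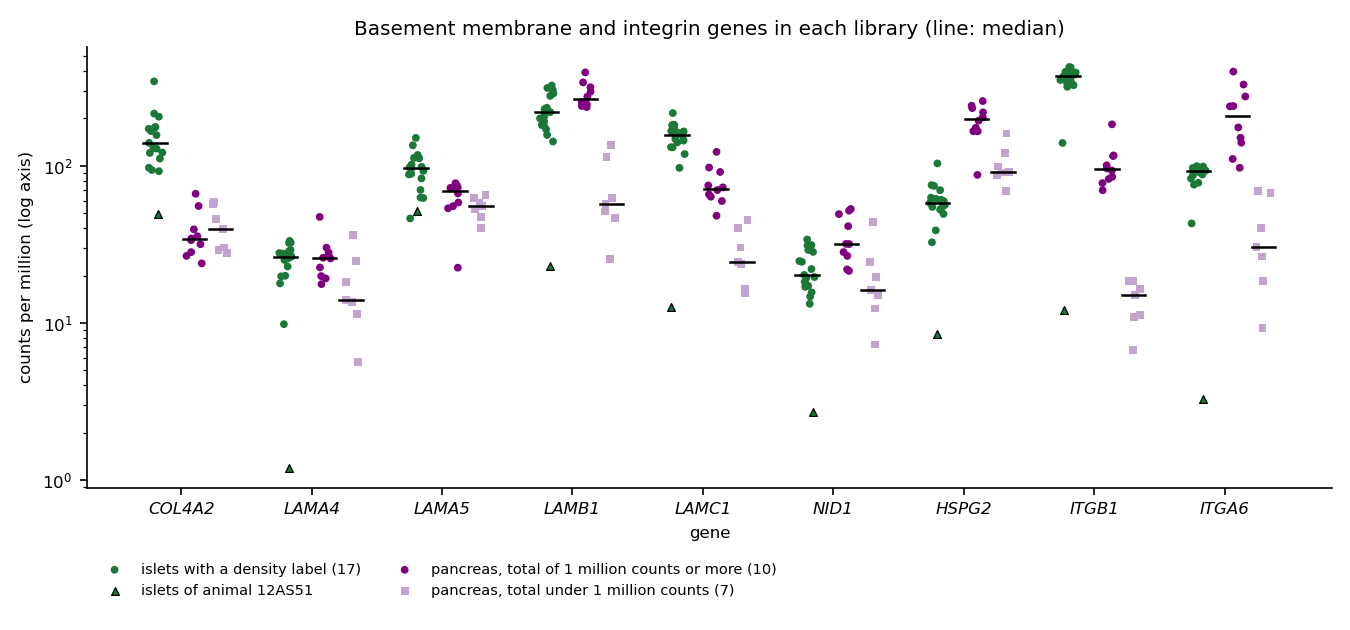
Levels in CPM (log axis) of the 9 genes in each library, with islets left of pancreas. Circles are islets with a density label and pancreas libraries with a total of at least 1000000 counts, squares are the 7 shallow pancreas libraries, the triangle is the islets of animal 12AS51, and lines are medians. COL4A2 and ITGB1 lie higher in islets, HSPG2 lies lower, and the shallow libraries lie below the other pancreas libraries most clearly for ITGB1.

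Between islets and pancreas the basement membrane genes did not move as a block. COL4A2, LAMC1 and ITGB1 were higher in islets, by 1.62, 0.80 and 1.74 on the log2 scale. HSPG2, NID1, LAMA4 and ITGA6 were lower, by fold changes of -1.92, -1.06, -0.49 and -1.37, and LAMA5 and LAMB1 did not pass. So 3 of 9 passed as higher and 4 of 9 as lower. Of the 12339 genes tested, 31.1% passed as higher and 31.5% as lower, so these shares lie near the background, and it is the direction of each gene that is described here. Of all genes that passed, 49.6% were higher in islets with TMM scaling and 71.0% with library totals alone. In bulk RNA, fewer cells of a type and less RNA per cell cannot be told apart.

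Collagen IV chain COL4A2 forms the covalent network of the sheet together with COL4A1. It had 48.9 CPM at the lowest, 134.8 at the median and 344 at the highest in islets, and 23.9, 34.4 and 66.3 CPM in pancreas. On library totals, without the TMM factors, all islet libraries except that of 12AS51 lay above every pancreas library. Within animals the islets were higher in 16 of 16 pairs. The mean was 149.7 ± 64.5 CPM in islets and 39.0 ± 13.0 CPM in pancreas (SD, n = 18 and 17), and the fold change was 1.62 (SE 0.23, adjusted p = 6.45e-08). Without the shallow libraries and the islets of 12AS51, the groups did not overlap at all. The highest islet value was that of 15AS28, whose endothelial markers also had the highest sum in islets (452 CPM).

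The other collagen IV chains went the opposite way. COL4A3, COL4A4 and COL4A5, which form the alternative networks best known from the kidney glomerulus, fell in islets by 2.36, 1.02 and 1.15 on the log2 scale. COL4A3 averaged 4.30 CPM in islets and 16.6 CPM in pancreas. COL4A4 no longer passed without the shallow libraries (-0.63). COL4A6 was too low to be tested.

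Among the laminin chains, LAMC1, the gamma chain of most laminins, was the one that passed as higher. It had 12.7 CPM at the lowest, 155 at the median and 216 at the highest in islets, against 15.4, 59.6 and 122.5 CPM in pancreas. On library totals 15 of the 18 islet libraries lay above every pancreas library and that of 12AS51 lay below every one. Islets were higher in 15 of 16 pairs. These ranks and pairs leave out the TMM factor, which was 0.12 for the islets of 12AS51 and raises their level in the fit. The log2 fold change was 0.80 (SE 0.18, adjusted p = 0.000134), and it was 0.49 without the shallow libraries, still past the threshold.

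LAMB1, the beta chain that partners LAMC1, had 23.1 CPM at the lowest, 214 at the median and 324 at the highest in islets, against 25.5, 240.2 and 393 CPM in pancreas. The ranges overlapped, and the fold change of -0.44 (SE 0.24) did not pass (adjusted p = 0.111). The pancreas values split by depth, with 25.5 to 136 CPM in shallow and 236 to 393 CPM in the other 10 libraries. Without the shallow libraries LAMB1 passed as lower in islets (-0.92), with 12 of the 17 labelled islet libraries below all 10 deeper pancreas libraries. Leaving out the pancreas library Low 4 or Low 5 alone also brought it past the threshold.

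LAMA5, the alpha chain of epithelial and vascular laminins, had 46.2 CPM at the lowest, 94.6 at the median and 150.4 at the highest in islets, and 22.4, 58.3 and 77.5 CPM in pancreas. Islets were higher in 13 of 16 pairs on the CPM scale, but after TMM scaling the fold change was 0.39 (95% interval -0.09 to 0.87) and did not pass (adjusted p = 0.155). LAMA5 passed as higher with library totals alone (0.61, adjusted p = 0.00517) and with no low-count filter (0.75, adjusted p = 0.00596), and its fold change was 0.069 without the islets of 12AS51.

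LAMA4, the alpha chain of vessel and fat cell laminins, had 1.19 CPM at the lowest, 26.4 at the median and 33.2 at the highest in islets, and 5.60, 22.5 and 47.2 CPM in pancreas. The ranges overlapped widely and the means were 24.1 ± 8.1 CPM in islets and 22.7 ± 9.9 CPM in pancreas. Its call as lower (-0.49, SE 0.15, adjusted p = 0.00519) rests on the scaling: with library totals alone the fold change was 0.02, and the median of all genes then moved to 0.47.

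The laminin chains outside the 9 genes were lower in islets for the most part. LAMB2, the beta chain that replaces LAMB1 in other vascular, muscle and kidney laminins, fell by 2.72, with a mean of 5.78 CPM in islets and 28.4 CPM in pancreas. LAMA1, LAMA3 and LAMB3 fell by 1.26, 1.47 and 1.08. LAMA1 did not pass without the animals whose code begins with 14 (-0.83, adjusted p = 0.0506). LAMB3 no longer passed without the shallow libraries (-0.13), and its mean level was only 3.28 CPM in islets. LAMC3 was not tested, and LAMA2 was not analysed here.

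The 2 linkers were lower in islets. HSPG2, a large heparan sulfate proteoglycan, had 8.50 CPM at the lowest, 57.9 at the median and 103 at the highest in islets, and 69.0, 166 and 258 CPM in pancreas. Islets were lower in 16 of 16 pairs, and 14 of 18 islet libraries lay below every pancreas library. Its log2 fold change was -1.92 (SE 0.18, adjusted p = 4.91e-12), the largest fall among the 9 genes. NID1, which bridges laminin and collagen IV, had 2.69 CPM at the lowest, 19.9 at the median and 33.9 at the highest in islets, and 7.28, 26.7 and 53.1 CPM in pancreas. The NID1 ranges overlapped, with islets lower in 10 of 16 pairs, and in 7 of the 8 pairs with a deeper pancreas library and without 12AS51. The fold change was -1.06 (SE 0.17, adjusted p = 7.94e-07).

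The integrin chains moved in opposite directions. ITGB1, the shared beta chain of most matrix-binding integrins, had 12.1 CPM at the lowest, 370.02 at the median and 425 at the highest in islets, and 6.75, 77.6 and 183.6 CPM in pancreas. On library totals 16 of the 18 islet libraries lay above every pancreas library, and the exceptions were 15AS28 (139.6 CPM) and 12AS51 (12.1 CPM). Those 2 libraries had the lowest TMM factors in islets (0.83 and 0.12), which these levels leave out. The log2 fold change of ITGB1 was 1.74 (SE 0.27, adjusted p = 6.05e-07), and 1.21 without the shallow libraries. In the labelled islet libraries other than 15AS28, ITGB1 stayed within 318 to 425 CPM.

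ITGA6, the laminin-binding alpha chain, had 3.28 CPM at the lowest, 92.2 at the median and 99.3 at the highest in islets, and 9.28, 110.5 and 398 CPM in pancreas. The pancreas covered a far wider range than the islets and the groups overlapped. Over all 16 pairs the islets were lower in 9. In the 8 pairs whose pancreas library was not shallow, a set that leaves out animal 12AS51, they were lower in 8. The log2 fold change was -1.37 (SE 0.29, adjusted p = 7.79e-05), and -1.89 without the shallow libraries.

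**Figure D2:**
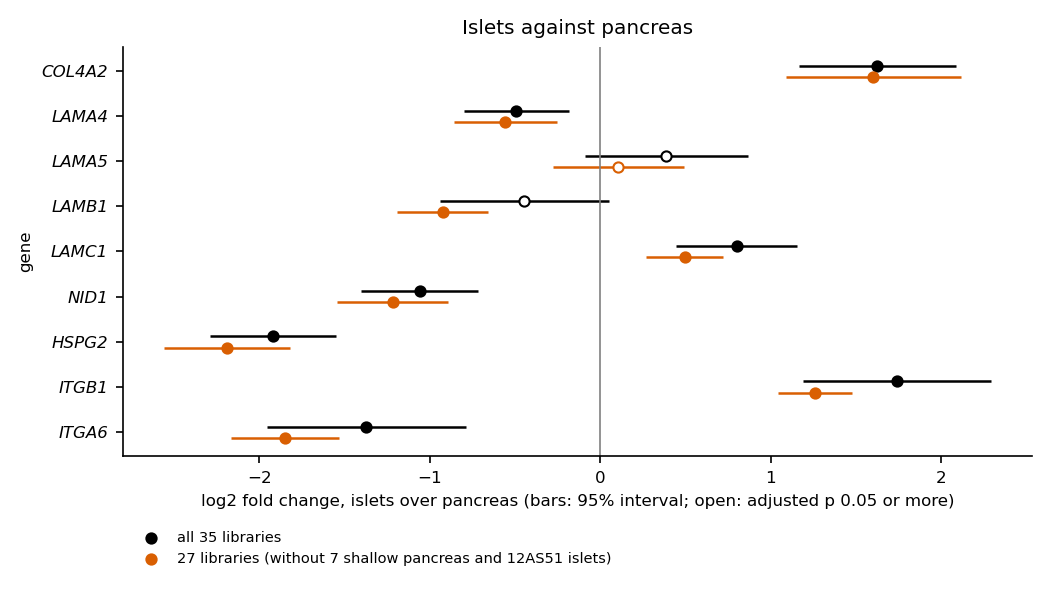
Log2 fold change of islets over pancreas for the 9 genes, with 95% intervals, from all 35 libraries (black) and from the 27 left without the shallow pancreas libraries and the islets of 12AS51 (orange). Filled points passed an adjusted p of 0.05. COL4A2, LAMC1 and ITGB1 lie above 0 and LAMA4, NID1, HSPG2 and ITGA6 below 0 in both fits, while LAMB1 passed in the smaller set of libraries only.

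In ratios of counts between genes of 1 library the scaling of that library cancels, though low counts still make them uncertain. They are given as a description, since the pairs were picked after the values were seen. The ratio of ITGA6 to ITGB1 counts was 0.199 at the lowest, 0.248 at the median and 0.308 at the highest in islets, and 0.50, 2.37 and 6.0 in pancreas. The tissues did not overlap. Of the islets that stood apart in their levels, those of 12AS51 (0.272) lay within the range of the other islets. Those of 15AS28 (0.308) had the highest islet ratio, followed by 0.287 in 15LS29 (High). The lowest pancreas ratio came from a shallow library with 4 counts of ITGA6 and 8 of ITGB1. Among the deeper pancreas libraries the lowest was 0.821, in that of 15LS30 (Low), which also had the highest endocrine marker sum in pancreas (15834 CPM).

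The ratio of COL4A2 to HSPG2 counts separated the tissues as well. It was 1.52 at the lowest, 2.77 at the median and 5.75 at the highest in islets, against 0.117, 0.25 and 0.654 in pancreas. The ratio of LAMC1 to LAMB1 was 0.709 at the median in islets and 0.308 in pancreas, but the ranges overlapped (0.366 to 1.05 in islets and 0.152 to 1.57 in pancreas). LAMA5 to LAMA4 (medians of 3.86 in islets and 2.88 in pancreas) and HSPG2 to NID1 (2.90 in islets and 6.22 in pancreas) overlapped too. Between High and Low islets the median ratio of ITGA6 to ITGB1 was 0.244 in High and 0.251 in Low, that of COL4A2 to HSPG2 was 2.76 in both, and that of LAMA5 to LAMA4 was 4.79 in High and 3.49 in Low, with overlapping ranges.

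**Figure D3:**
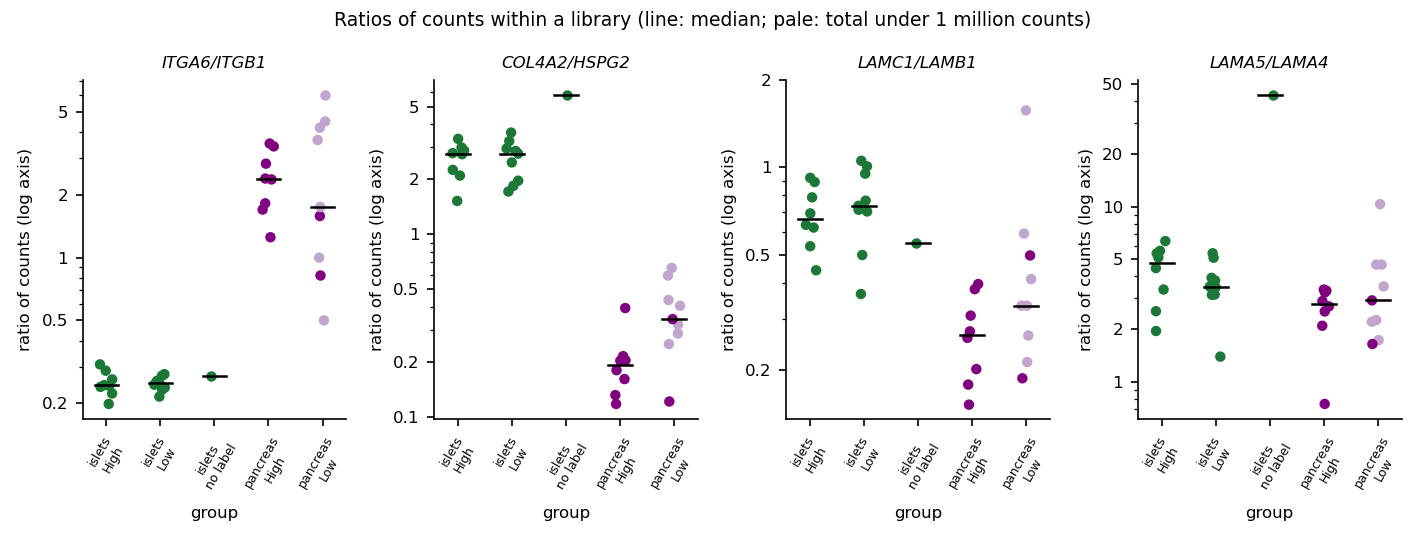
Ratios of counts within each library (log axis) for 4 gene pairs, by tissue and density label, with medians as lines and shallow libraries pale. For ITGA6 to ITGB1 every islet library lies at 0.308 or less and every pancreas library at 0.50 or more. For COL4A2 to HSPG2 every islet library lies at 1.52 or more and every pancreas library at 0.654 or less, and the other pairs overlap.

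The partners of ITGA6 and ITGB1 showed which other receptors changed between the tissues. ITGB4, the other partner of ITGA6 and a part of hemidesmosomes, fell by 2.18, with a mean of 3.32 CPM in islets and 13.9 CPM in pancreas. Among alpha chains that pair with ITGB1, the collagen receptor chains ITGA1 and ITGA2 fell by 1.12 and 0.71 and the fibronectin receptor chain ITGA5 fell by 1.83. ITGA1 and ITGA2 did not pass with library totals alone (-0.57 and -0.11). ITGA3, another laminin receptor chain, did not pass (-0.08, adjusted p = 0.823), but without the shallow libraries it passed as higher in islets (0.82). ITGAV, which binds RGD-containing ligands, rose by 0.57 and did not pass without the shallow libraries (0.14). ITGA7 was not tested.

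In the wider lists of the same matrix, which were chosen with earlier results of these data known, basement membrane genes were lower in islets more often than higher. Of 21 other basement membrane genes tested 4 rose and 14 fell, with a median log2 fold change of -1.08, against a median of -0.01 over all genes. The counts were 5 and 11 without the shallow libraries. Those with the largest rise were SMOC1 (1.95), SPARC (1.93) and NTN4 (0.62, and 0.37 with no call without the animals whose code begins with 14), and those with the largest fall were FBLN1 (-3.81), HMCN1 (-3.47) and LAMB2. SPARC binds collagen IV and averaged 107 CPM in islets and 19.5 CPM in pancreas. SMOC1 is a relative of SPARC, and NTN4 is a laminin-related netrin. FBLN1 (fibulin) and HMCN1 (hemicentin) are matrix proteins of connective tissue and tissue junctions.

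Of 15 other integrin chains tested 5 rose and 8 fell (median -0.71). The largest rises were ITGB6 (3.06), ITGA4 (2.67) and ITGB8 (1.12), and the largest falls ITGA9 (-2.40), ITGB4 and ITGB3 (-2.06). ITGB6 and ITGB8 both pair with ITGAV and bind latent transforming growth factor beta, and ITGA4 pairs with ITGB1 or ITGB7. ITGB6 averaged 75.5 CPM in islets and 8.67 CPM in pancreas, and ITGA4 averaged 83.0 CPM in islets and 8.20 CPM in pancreas.

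Of 10 other matrix receptors 3 rose and 3 fell (median 0.01). DDR1, a collagen receptor kinase of epithelia, rose by 1.40, CD47 by 1.04 and the syndecan SDC2 by 1.04. DDR2, the collagen receptor kinase of mesenchymal cells, fell by 2.11, SDC3 by 0.85 and the laminin receptor BCAM by 0.57, though BCAM did not pass with library totals alone (-0.12) and neither did SDC3 (-0.43). Of 19 genes of the adhesion machinery inside the cell 2 rose, BCAR1 (1.52) and ACTN1 (0.77), and 8 fell, with TNS1 (-2.48), TLN2 (-2.39) and PARVA (-1.99) lowest (median -0.31).

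Of 13 genes of collagen processing 5 rose and 3 fell (median 0.53). The lysyl hydroxylases PLOD3 and PLOD1 rose by 1.96 and 0.95 and the prolyl 3-hydroxylase P3H1 by 1.06. P3H2, a prolyl 3-hydroxylase that acts on collagen IV, fell by 2.99, P4HB by 1.49 and the collagen chaperone SERPINH1 by 0.56, which did not pass under several other settings (-0.55 to -0.15). Of 15 genes of matrix turnover 2 rose, the gelatinase MMP9 (1.71) and the membrane-type protease MMP14 (0.65), and 5 fell, with ADAMTS1 (-2.14), PLAU (-1.34) and TIMP4 (-1.17) lowest (median 0.20). MMP9 did not pass in DESeq2 (0.88), MMP14 did not pass with animals as blocks (0.35) and TIMP4 did not pass without the shallow libraries (-0.04).

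Marker genes of cell types that make basement membrane also differed between the tissues. Of 12 endothelial markers tested 0 rose and 10 fell (median -0.90), and of 12 pericyte and fibroblast markers 3 rose and 9 fell (median -2.09). The summed CPM of the endothelial markers was 48.5 to 452 in islets (median 226) and 120 to 640.3 in pancreas (median 235). That of the pericyte and fibroblast markers was 72.5 to 667 in islets (median 278) and 134 to 668 in pancreas (median 327). On library totals these medians were thus close with all libraries. Without the shallow libraries and the islets of 12AS51, the endothelial medians were 229 CPM in islets and 417 CPM in pancreas. Those of the pericyte and fibroblast markers were 279 CPM in islets and 288 CPM in pancreas. TEK, the angiopoietin receptor, fell by 4.82, while CDH5 (-0.25) and KDR (-0.05) did not pass. Duct markers summed to 47.1 to 852 CPM in islets and 356 to 3204 CPM in pancreas. The Schwann and leukocyte sums were at most 122 and 45.1 CPM in islets, and at most 147 and 228 CPM in pancreas. None of these marker genes with values was at 0 in all libraries of a tissue. The part of cell makeup in the fold changes of the 9 genes was not tested.

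**Figure D4:**
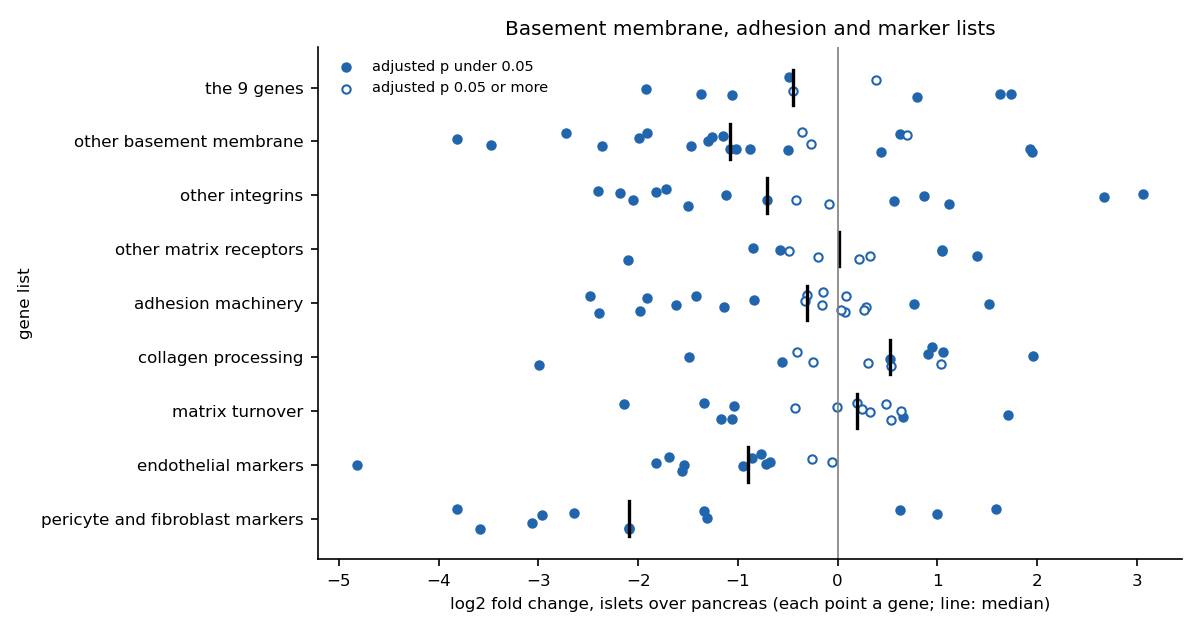
Log2 fold change of islets over pancreas for each tested gene (points, filled where the adjusted p was under 0.05) in the 9 genes, 6 wider lists and 2 marker lists, with list medians as lines. The 9 genes spread over -1.92 to 1.74, and the medians of the other basement membrane genes (-1.08) and of the pericyte and fibroblast markers (-2.09) lie below 0.

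Across the density labels, the pancreas and the islets gave different pictures. In pancreas, ITGA6, ITGB1, LAMB1 and LAMC1 were higher in High than in Low animals, with log2 fold changes of 1.96, 1.34, 1.29 and 0.75. That is 4 of 9, against 18.8% of the 10634 genes tested that passed as higher and 21.5% that passed as lower. Of all genes that passed, 46.6% were higher in High pancreas with TMM scaling, 34.6% with upper-quartile scaling and 22.4% with library totals alone. In each of these 4 genes the low values came from the shallow Low libraries, and without those 7 libraries 0 of 13217 genes passed in edgeR's quasi-likelihood test (1222 at an unadjusted p under 0.05, and no other tool was run on this subset).

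ITGA6 had 97.1 CPM at the lowest, 239 at the median and 398 at the highest in High pancreas, and 9.28, 40.0 and 150.7 CPM in Low pancreas. Of the 8 High libraries 6 lay above every Low library, and the 2 deeper Low libraries (110.5 and 150.7 CPM) lay within the High range. The fold change was 1.96 (SE 0.37, adjusted p = 0.000329). It was 1.31 without the shallow libraries and did not pass (adjusted p = 0.329), with the same direction and only 2 Low libraries left.

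ITGB1 had 77.6 CPM at the lowest, 94.8 at the median and 116 at the highest in High pancreas, against 6.75, 16.4 and 183.6 CPM in Low pancreas. The Low values fell into 7 shallow libraries at 6.75 to 18.6 CPM and 2 deeper ones at 69.8 and 183.6 CPM, on both sides of the High range. The fold change was 1.34 (SE 0.38, adjusted p = 0.00737) with all libraries, and 0.14 without the shallow ones. With the acinar level of each library as a covariate it was -0.19, and 0 of 10634 genes passed in that fit (519 at an unadjusted p under 0.05). The summed acinar markers did not overlap between High (at least 151914 CPM) and Low pancreas (at most 110220 CPM). That fit therefore cannot fully separate the acinar level from the density label.

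LAMB1 ranged over 236 to 393 CPM in High pancreas, with a median of 265, and over 25.5 to 339 CPM in Low pancreas, with a median of 62.2. LAMC1 ranged over 48.1 to 97.4 CPM in High pancreas, with a median of 71.4, and over 15.4 to 122.5 CPM in Low pancreas, with a median of 30.2. Both groups overlapped only through the 2 deeper Low libraries. The fold changes were 1.29 (SE 0.36, adjusted p = 0.00669) for LAMB1 and 0.75 (SE 0.27, adjusted p = 0.0318) for LAMC1. They were 0.43 and 0.15 without the shallow libraries. The LAMC1 call was also lost on leaving out any one of the Low libraries 1, 3, 5, 6, 7 or 8.

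HSPG2 (0.55, adjusted p = 0.0711), NID1 (0.42), LAMA4 (0.10), LAMA5 (-0.11) and COL4A2 (-0.33) did not pass. HSPG2 had 87.5 CPM at the lowest, 189 at the median and 258 at the highest in High pancreas, and 69.0, 98.8 and 233 CPM in Low pancreas. It passed on leaving out the Low library 2 or the High library 5, in DESeq2 (0.56), with no low-count filter (1.04) and with a filter of 1 CPM (0.90). NID1 passed with no filter (0.87, adjusted p = 0.0280) and with a filter of 1 CPM (0.77, adjusted p = 0.0469). NID1 averaged 34.5 ± 11.8 CPM in High and 24.4 ± 15.1 CPM in Low pancreas, and LAMA4 23.7 ± 4.6 CPM in High and 21.8 ± 13.2 CPM in Low (SD, n = 8 and 9). The means of LAMA5, 59.0 ± 16.7 CPM in High and 59.3 ± 12.3 CPM in Low, differed by less than their spread. COL4A2 averaged 35.1 ± 9.6 CPM in High and 42.6 ± 15.1 CPM in Low, and the 95% interval of its log2 difference was -0.81 to 0.15. Among the 9 genes it alone had a higher median in the shallow Low libraries (39.5 CPM) than in High pancreas (34.0 CPM).

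**Figure D5:**
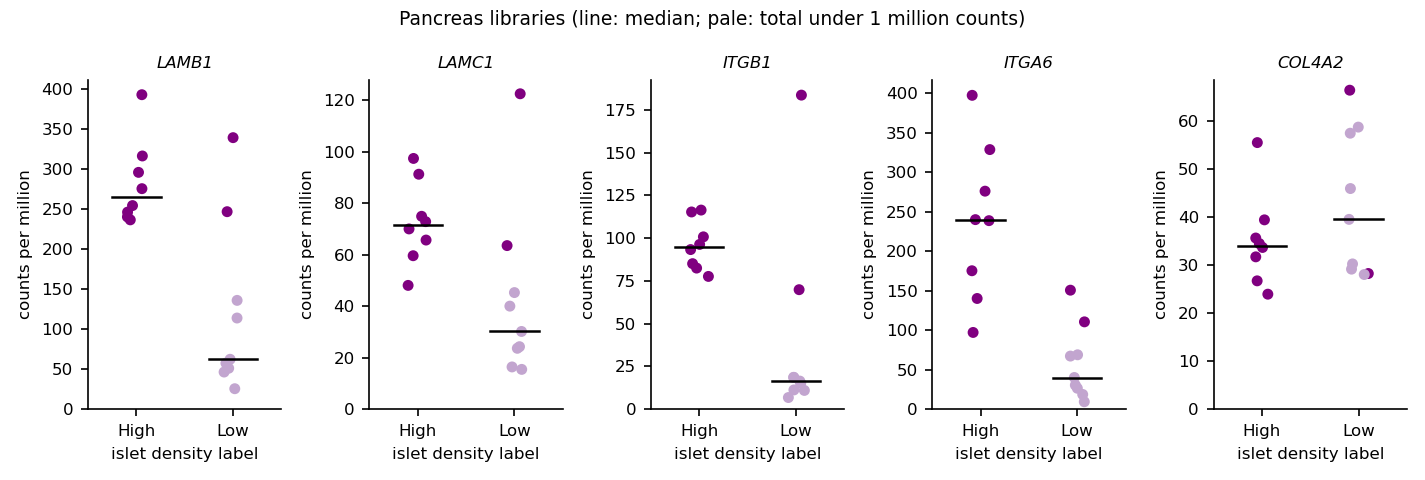
Levels in CPM of 5 genes in the 8 High and 9 Low pancreas libraries, with medians as lines and the 7 shallow libraries pale. For LAMB1, LAMC1, ITGB1 and ITGA6 the shallow libraries lie below every High library, while for COL4A2 they lie within and above the High range.

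Many other genes moved with the density label in pancreas. The acinar markers summed to 151914 to 256270 CPM in High pancreas, 10295 to 29660 CPM in the shallow Low libraries and 90675 to 110220 CPM in the 2 deeper Low libraries. Of 13 acinar markers 12 passed as higher in High pancreas, and of 8 duct markers 6. Of 16 endocrine markers 0 rose and 7 fell (median -0.93). Without the shallow libraries the endocrine median was -1.83 and 0 of 18 passed, with 14 at an unadjusted p under 0.05. The summed CPM of the endocrine markers, which leaves out the TMM factors, had a higher median in High pancreas (1144, range 665 to 3352) than in Low pancreas (528). It was 368 to 731 CPM in the shallow Low libraries, and 841 and 15834 CPM in the 2 deeper ones. Of 11 endothelial markers 4 rose and 1 fell, of 13 pericyte and fibroblast markers 0 rose and 5 fell, of 6 leukocyte markers 0 rose and 3 fell, and of 4 Schwann markers 0 rose and 2 fell. Of 18 other basement membrane genes tested 0 rose and 6 fell (median -0.50), of 16 other integrin chains 1 rose and 9 fell (median -1.35), of 9 other matrix receptors 2 rose and 2 fell, of 20 adhesion genes 3 rose and 0 fell, of 12 collagen processing genes 5 rose and 4 fell, and of 12 turnover genes 2 rose and 3 fell. Of the 14 partner chains tested 9 passed, with fold changes from -2.03 to 1.08. Endothelial markers summed to 208 to 612 CPM in High and 120 to 640.3 CPM in Low pancreas. Depth, acinar level and animal code all moved with these differences. Without the animals whose code begins with 14, 0 of 12844 genes passed in edgeR's test (2183 at an unadjusted p under 0.05), as in the fits without the shallow libraries and with the acinar level, given above.

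In islets the density label went with no measured difference in the 9 genes that passed. Of 12070 genes tested 0 passed (0%) in edgeR's quasi-likelihood test, with 257 at an unadjusted p under 0.05, and 0 passed in DESeq2. The 9 genes had log2 fold changes of -0.08 to 0.29, and none was under an unadjusted p of 0.05. The intervals bound the differences most closely for the integrins: ITGB1 had a fold change of -0.06 (95% interval -0.26 to 0.15) and ITGA6 one of -0.06 (-0.25 to 0.13). They were -0.26 to 0.26 for LAMC1, -0.22 to 0.34 for LAMB1 and -0.39 to 0.98 for COL4A2.

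By level, COL4A2 in islets averaged 158 ± 82 CPM in High and 154 ± 41 CPM in Low (SD, n = 8 and 9), and HSPG2 averaged 60.1 ± 20.0 CPM in High and 60.2 ± 11.7 CPM in Low. ITGB1 averaged 341 ± 89 CPM in High and 373 ± 29 CPM in Low islets, and the wide spread in High came from 15AS28. Without that library the COL4A2 fold change was -0.20. The laminin chains lay as close together: LAMC1 averaged 149 ± 26 CPM in High and 162.1 ± 29.9 CPM in Low islets, LAMB1 223 ± 48 CPM in High and 229.6 ± 65.9 CPM in Low, LAMA5 94.4 ± 30.7 CPM in High and 95.5 ± 23.7 CPM in Low, and LAMA4 23.5 ± 7.0 CPM in High and 27.2 ± 4.5 CPM in Low. NID1 averaged 21.0 ± 7.4 CPM in High and 23.5 ± 5.7 CPM in Low islets. ITGA6 averaged 83.2 ± 17.4 CPM in High and 92.5 ± 7.3 CPM in Low islets. The 14 partner chains tested gave fold changes of -0.44 to 0.70, and 0 passed.

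The difference between the density differences, islets minus pancreas, was tested over the 34 libraries with a density label. It passed for ITGA6 (-2.22, SE 0.39, adjusted p = 9.45e-05), ITGB1 (-1.53, SE 0.44, adjusted p = 0.00668), LAMB1 (-1.42, SE 0.42, adjusted p = 0.00737) and LAMC1 (-0.97, SE 0.32, adjusted p = 0.0173). That is 4 of 9, near the 39.9% of 14337 genes that passed in either direction. Of the genes that passed, 55.7% had a positive difference with TMM scaling, 70.5% with upper-quartile scaling and 81.6% with library totals alone. Without the shallow libraries ITGA6 was the only one of the 9 that passed (-1.45, adjusted p = 0.0237), and without the animals whose code begins with 14 it did not (-1.59, adjusted p = 0.154). With the animal as a block, 6 of 9 passed, as HSPG2 (-1.02) and NID1 (-1.16) joined the 4.

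The genes most like each of the 9 across libraries were found by the root mean square difference of centred log2(CPM + 1). Across the 18 islet libraries COL4A2 was nearest to CDH5, an endothelial cadherin, at 0.251, then to PLEKHO2 and FLNA. Over the 16 islet libraries without 12AS51 and 15AS28 CDH5 lay at 0.252 and ranked 9 of 10291 genes. The spread of COL4A2 itself, as the root mean square of its centred values, was 0.584 over the 18 and 0.374 over the 16. In pancreas CDH5 ranked 943 of 9297 genes for COL4A2 over the 17 libraries and 6768 over the 10 deeper ones. LAMA4 was nearest to LAMC1 (0.242) across the 18 libraries and to UBE2E2 (0.215) across the 16, and NID1 was nearest to ITM2C (0.222) and then CCDC80 across the 18, and to CCDC80 (0.205) and then ITM2C across the 16. ITGB1 was nearest to PDIA3, a folding enzyme of the endoplasmic reticulum, in both sets (0.058 and 0.052), and ITGA6 to TAB2 (0.113) in the 18 and SP1 (0.073) in the 16. The spread of ITGB1 itself was 1.14 over the 18 but only 0.121 over the 16, and that of ITGA6 1.03 and 0.112. HSPG2 was nearest to EHD4, LAMA5 to MINK1, LAMB1 to RFWD3 and LAMC1 to QKI across the 18. Across the 16 these nearest genes changed to EDEM2, DOT1L, TRMT10B and SBF2, in the same order. Across the 17 pancreas libraries the nearest genes were SF3B2 for COL4A2, DHX9 for ITGB1 and RDH11 for ITGA6, at 0.297, 0.304 and 0.545. Over the 10 deeper ones they were NOTCH3, API5 and LIFR, at 0.162, 0.131 and 0.316. These are descriptions with no test, and the libraries compared differ in depth and in the share of their most abundant genes.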

How the data were processed

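The authors deposited raw counts of reads per gene, under Ensembl pig identifiers, for islet and pancreas RNA. Per the submitters' processing notes, the tools were HISAT2 2.0.2, Subread, FastQC and edgeR on the build susScr3, without their roles or order. The strand setting and annotation release were not given in the sources used here, so reads of overlapping genes cannot be told apart. Counts were used unrounded and unscaled. Identifiers were matched to symbols through an Ensembl table (14857 of 25880). No coordinates or sequences are printed.

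Titles gave the tissue, also where the source name of 2 islet samples (animals 11KS28 and 12AS51) reads Pancreas. Columns were matched by animal code and tissue: 35 columns served 37 samples. Another column (1) belonged to no listed sample and was left out, and 2 islet samples (15LS27, 15LS30) were not analysed here. Total counts per library set the precision, and a floor of 3 counts covers counting error only.

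CPM used library totals. Tests were robust quasi-likelihood fits in edgeR 4.0.16 (R 4.3.3) with filterByExpr and TMM, two-sided, adjusted over all genes. The fits were tested on simulated data. Alternatives were other scalings and filters, DESeq2 1.42.0, an acinar covariate, animals as blocks, and leaving out libraries. One further alternative, without the shallow libraries and the islets of 12AS51, was chosen after seeing the data, as were the count ratios and the likeness over fewer libraries.

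The members and lists were chosen with earlier results of these data known. In each list the rule names, per comparison, up to 3 passing genes per direction with the largest fold change, plus partner chains. It was followed for the tissue comparison, except for a gene that is not reported here. The lists of the density comparisons are given by counts, since their calls ended without the shallow libraries. TEK, CDH5 and KDR were named after their values were seen.

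Animal codes in the titles pair the tissues, so the pairing comes from the labels. Expression deviations were most alike within the same animal in 2 of 15 animals (median correlation 0.03). The same 7 calls were made with animals as blocks. No pair of libraries in a group agreed within sampling noise (lowest chi-square per degree of freedom 3.41 over 128 pairs).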

Additional observations from a re-analysis of the deposited data

Results flagged for a closer look

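In each density group of a tissue the highest and the lowest level of the 9 genes were set against the rest of the group by Dixon's ratio of the gap to the range, and 8 of 36 groups held a library far from the others. For separate groups of normally distributed values, chance gives this in about 1 in 20 groups. Here the 36 groups share libraries between genes, and the Low pancreas group mixes shallow and deeper libraries. The count of 8 therefore cannot be set against that rate. The islets of 15AS28 (High) held 4 of the 8. COL4A2 was at 344 CPM there, against 92.3 to 172 CPM in the other High islets, and HSPG2 at 103 CPM, against 32.6 to 62.7 CPM. In the same library ITGB1 was at 139.6 CPM, against 318 to 423 CPM, and ITGA6 at 42.9 CPM, against 77.9 to 96.6 CPM. All levels compared here leave out the TMM factors. In the fit of density in islets the factor was 0.61 for 15AS28, against 0.89 to 1.17 in the other High islets. Genes of 15AS28 therefore lie lower on the CPM scale, against those islets, than in the fit. Whether ITGB1 and ITGA6 would still stand apart with these factors was not tested in that library. The 10 most abundant genes took 52.3% of its counts, and its endothelial marker sum (452 CPM) was the highest in islets. The pancreas of 15LS30 (Low) stood out for LAMC1 (122.5 CPM, against 15.4 to 63.5 CPM in the other Low libraries) and for ITGB1 (183.6 CPM, against 6.75 to 69.8 CPM). All of these other Low libraries except that of 12FS161 were shallow, and 12FS161 gave the upper end of both ranges. The endocrine marker sum of the 15LS30 pancreas was 15834 CPM, the highest in pancreas. Animal 15LS26 stood out in both tissues, with ITGA6 at 75.8 CPM in its Low islets (88.0 to 99.3 CPM in the others) and LAMA5 at 22.4 CPM in its High pancreas (53.6 to 72.9 CPM in the others).

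The density difference in islets minus that in pancreas passed for 4 of the 9 genes, at -1.53 for ITGB1, -1.42 for LAMB1, -0.97 for LAMC1 and -2.22 for ITGA6 (edgeR, adjusted p between 9.45e-05 and 0.0173). The 7 shallow libraries are all in the Low pancreas group, and without them it was -1.45 for ITGA6 and -0.27 for ITGB1.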

How the results depend on the processing

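In the tissue comparison the 7 genes that passed kept their direction under every alternative run, except that LAMA4 turned to 0.023 with library totals only, and 7 or 8 of the 9 passed. They were not always the same genes: LAMA4 did not pass with totals only or with no low-count filter (-0.12), and LAMA5 passed in these (0.61 and 0.75). LAMB1 turned to 0.10 with totals only. ITGA3 (-0.08 with all libraries) turned to 0.26 with totals only, 0.021 without genes above 5% of a library, 0.39 with no low-count filter, 0.063 with a filter of 1 CPM, 0.82 without the shallow libraries, 0.68 without animals of code 14, 0.00027 without islets with source name Pancreas and 0.83 without the shallow libraries and the islets of 12AS51, and ran from -0.19 to 0.20 on leaving out single libraries. With no low-count filter 15012 genes passed, against 7726. With the animal as a replicate block 7 of 9 passed, each as before, and 6876 genes did.

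For density in pancreas 2542 genes passed with totals only, 10836 with no filter and 7587 with a filter of 1 CPM, against 4283. Without the shallow libraries, without code 14 or with the acinar covariate 0 genes and 0 of the 9 passed. With totals only 2 of the 9 did. COL4A2 turned to 0.19, 0.062, 0.093 and 0.074 (no filter, 1 CPM, no shallow libraries, acinar covariate), LAMA4 to -0.073, -0.000387, -0.11 and -0.21 (upper quartile, totals only, no shallow libraries, acinar covariate), LAMA5 to 0.41, 0.27, 0.094 and 0.18 (no filter, 1 CPM, no shallow libraries, no code 14) and ITGB1 to -0.19 (acinar covariate). On leaving out single libraries LAMA4 ran between -0.012 and 0.27 and LAMA5 between -0.20 and 0.089.

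For density in islets 0 genes passed under every alternative. Without code 14 the value turned to 0.067 for LAMA4, -0.34 for LAMB1, 0.040 for LAMC1, 0.095 for NID1 and 0.042 for ITGA6. With totals only it turned to -0.018 for LAMA5, -0.041 for LAMB1 and -0.0039 for HSPG2. LAMC1, at -0.0030 with all libraries, was 0.00071 with relative log expression scaling, 6.61e-05 in DESeq2 and 0.0072 without islets with source name Pancreas. Leaving out single libraries gave -0.20 to 0.39 for COL4A2, -0.24 to 0.025 for LAMA4, -0.12 to 0.26 for LAMA5, -0.079 to 0.057 for LAMC1, -0.16 to 0.020 for NID1, -0.12 to 0.32 for HSPG2 and -0.097 to 0.014 for ITGB1. The lowest values for COL4A2, LAMA5 and HSPG2 came without 15AS28.

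For the difference between tissues 8812 genes passed with no filter, 61 without the shallow libraries and 9 without code 14, against 5718. Of the 9 genes 2 passed with totals only, 1 without the shallow libraries and 0 without code 14. COL4A2 turned to -0.20 with no filter and -0.068 with the animal as a replicate block, where 6 of the 9 passed. LAMA4 turned to 0.0087 without code 14. LAMA5, at -0.01, turned to 0.156 with relative log expression scaling, 0.30 with upper-quartile scaling, 0.045 with totals only and 0.157 in DESeq2. Leaving out single libraries was not run for this difference, and leaving out shallow libraries has no meaning within islets, where none is shallow. The causes of these changes were not tested. In shallow libraries several of the 9 genes rest on fewer than 10 counts.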
